A study of Mus musculus with 4 samples.

Results

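The mineralization and SIBLING genes are 10 of the 32285 genes measured in both libraries: Spp1, Ibsp, Dmp1, Mepe, Phex, Alpl, Phospho1, Ifitm5, Enpp1 and Slc13a5. They were chosen by symbol, and all 10 were present in both gene tables. Their UMIs (unique molecular identifiers, each standing for 1 captured transcript) were read in skeletal cells of a single young animal (6 months) and a single old one (24 months). Both mice were untreated and carried INK-ATTAC, a transgene in which part of the p16 promoter drives a drug-activated caspase 8. Femur and tibia were digested, hematopoietic lineage-positive cells were depleted, and live CD45- cells stained with an oligonucleotide-tagged CD24 antibody were sorted for CITE-seq, which reads the antibody and the mRNA of each cell together. With 1 mouse per age, age, animal and library cannot be told apart, so no p-value is given for old against young.

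Bone mineral forms in a collagen matrix when phosphate and calcium outweigh inhibitors, of which inorganic pyrophosphate is the best known. Osteoblasts make the collagen and the enzymes that remove pyrophosphate, and the SIBLING proteins (small integrin-binding ligand, N-linked glycoproteins) are acidic secreted proteins that bind mineral and integrins and either seed or restrain crystal growth. As osteoblasts become buried and turn into osteocytes they raise Dmp1, Mepe and Phex, which also act on circulating phosphate through the hormone FGF23.

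The SIBLING genes lie side by side. In the GRCm38.p6 annotation, which shares coordinates with the mm10 build named for these files, Dspp, Dmp1, Ibsp, Mepe and Spp1 were the 5 protein-coding genes on chromosome 5 between 104170703 and 104441053, a span of 270.351 kb. Dspp, the dentin member of the family, had 1 UMI in each library and is not among the 10. Within it Dmp1 spans 104197575 to 104214102, Ibsp 104299287 to 104311472, Mepe 104325329 to 104338611 and Spp1 104435111 to 104441053, all on the plus strand. The other members lie elsewhere: Phex on chromosome X (157162075 to 157415286, minus strand), Alpl on chromosome 4 (137741731 to 137796384, minus), Enpp1 on chromosome 10 (24637914 to 24712159, minus) and Ifitm5 on chromosome 7 (140948958 to 140950243, minus). Phospho1 (95824500 to 95832140, plus) and Slc13a5 (72241990 to 72267295, minus) are both on chromosome 11.

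RefSeq promoters (250 bases before to 50 after a transcript's start) were on hand for all 10 genes. The core letters of the RUNX motif, ACCACA or its reverse complement TGTGGT, occurred in 16.8% of 32851 mouse promoters, inner ones included. At the first start of the gene they occurred in 3 members: Spp1 at position -128 relative to the start, Mepe at -118 and -80, and Enpp1 at -144. A second, inner promoter of Dmp1 held the letters at -164, and the promoters of Ibsp, Phex, Alpl, Phospho1, Ifitm5 and Slc13a5 held none. Neither promoter of Slc13a5 lay at the first start of the gene. Spp1, Mepe and Enpp1 fell in summed level between osteoblasts poor and rich in osteocalcin, and Ifitm5 had the largest fitted rise that passed. In the young library Slc13a5 rose more than Ifitm5 (3.30 against 1.74 on the log2 scale), and in the old less (1.12 against 2.20). The promoters of Spp1, Mepe and Enpp1 are therefore shown with that of Ifitm5. Each is printed 5′ to 3′ on the gene's strand, with the RUNX core in capitals. A match describes letters and not a bound site, and a link between the letters and these directions was not tested.
Spp1 (chr5:104434861-104435160, plus strand): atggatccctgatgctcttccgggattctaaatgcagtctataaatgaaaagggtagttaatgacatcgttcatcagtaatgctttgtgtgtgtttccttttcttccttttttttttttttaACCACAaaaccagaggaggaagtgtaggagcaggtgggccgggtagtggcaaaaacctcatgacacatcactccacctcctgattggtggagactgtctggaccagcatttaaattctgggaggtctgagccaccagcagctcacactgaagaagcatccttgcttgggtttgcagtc
Mepe (chr5:104325079-104325378, plus strand): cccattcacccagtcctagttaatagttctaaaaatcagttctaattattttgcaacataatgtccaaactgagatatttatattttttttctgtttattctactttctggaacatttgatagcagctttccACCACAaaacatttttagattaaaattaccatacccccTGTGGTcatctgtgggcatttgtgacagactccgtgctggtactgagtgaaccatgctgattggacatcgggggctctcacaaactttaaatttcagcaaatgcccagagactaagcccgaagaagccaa
Enpp1 (chr10:24712110-24712409, minus strand): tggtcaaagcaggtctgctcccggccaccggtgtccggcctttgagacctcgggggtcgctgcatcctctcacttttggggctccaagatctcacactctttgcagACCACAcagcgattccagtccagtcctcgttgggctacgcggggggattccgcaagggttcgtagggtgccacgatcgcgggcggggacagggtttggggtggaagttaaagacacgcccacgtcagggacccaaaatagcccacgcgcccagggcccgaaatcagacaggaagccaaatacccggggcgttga
Ifitm5 (chr7:140950194-140950493, minus strand): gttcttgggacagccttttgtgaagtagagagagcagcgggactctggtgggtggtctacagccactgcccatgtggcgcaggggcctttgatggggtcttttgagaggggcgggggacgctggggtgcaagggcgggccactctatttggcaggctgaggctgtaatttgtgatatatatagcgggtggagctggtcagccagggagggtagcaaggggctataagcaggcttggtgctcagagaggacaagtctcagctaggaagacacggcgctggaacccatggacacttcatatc

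Cells with at least 200 genes and at most 20% mitochondrial UMIs were kept, 10063 in the young and 5607 in the old library, with 81076421 and 66702846 UMIs. Median depth per kept cell was 6385 UMIs (young) and 9711 UMIs (old). A cell was placed in the class of which it showed the most markers, at least 3 of 8, and no member is a marker. Osteoblast-gated cells numbered 731 young (7.26%) and 444 old (7.92%), chondrocyte-gated cells 204 and 56, and stromal cells 3605 and 2367. The remainder, named other, were fibroblast, tendon, erythroid, B-lineage, granulocyte and megakaryocyte cells and 1543 young and 892 old cells without a class. Levels are given as CPM, the gene's UMIs per 1000000 UMIs of the group.

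The groups were set by these markers, so a group is high in its own markers by construction. All 8 osteoblast markers were present in the osteoblast group, where they summed to 12681 CPM in the young and 24670 CPM in the old library, against 733 and 507 CPM in the stromal group. Osteocalcin (Bglap and Bglap2), a marker among the 8, gave most of both osteoblast sums. The osteoblast group also held tendon markers (1679 and 1146 CPM) and chondrocyte markers (490 and 924 CPM). The chondrocyte group held osteoblast markers (3116 and 1477 CPM) and tendon markers (3405 and 3876 CPM). By these sums it was the least pure of the osteoblast, chondrocyte and stromal groups, and purity was not read in the others. Without osteocalcin the osteoblast markers stood nearer the tendon markers of their group. In CD24+ and CD24- osteoblasts, split as described below, they summed to 2115 and 1604 CPM (young), against 2070 and 1520 CPM for tendon markers. In the old library they were at 1918 and 1928 CPM, against 1597 and 1060 CPM. Cells of blood classes (erythroid, B-lineage, granulocyte and megakaryocyte) served as the background of free RNA. For Spp1 the granulocytes stood apart: with each cell thinned to 2000 UMIs, 17 of 34 young and 24 of 73 old granulocytes held an Spp1 UMI, against 9.07% and 6.64% of erythroid cells. For Spp1 the erythroid cells are therefore given as well. The libraries shared 25 barcode sequences, 19 of them among kept cells.

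The question of the first comparison was in which cells the mineralization genes are expressed. Sums of UMIs per mouse and group, 8 in all, were tested with edgeR's quasi-likelihood test with the mouse as a block, with p-values adjusted over 15392 genes. Against stromal cells, 7 of the 10 members were higher in osteoblast-gated cells and none was lower, where 16.6% of all genes tested were higher and 18.6% lower. Against chondrocyte-gated cells, 3 were higher and 1 was lower (7.1% and 8.54% of all genes). Against the group named other, which leaves out chondrocyte-gated and stromal cells, all 10 were higher. There 18.4% of all genes were higher and 22.5% lower. All 10 members passed the low-count filter of this test. Fitted log2 differences use edgeR's TMM scaling, and differences quoted for 1 library are log2 ratios of CPM, so a fitted value can lie outside the values of the 2 libraries.

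**Figure D1:**
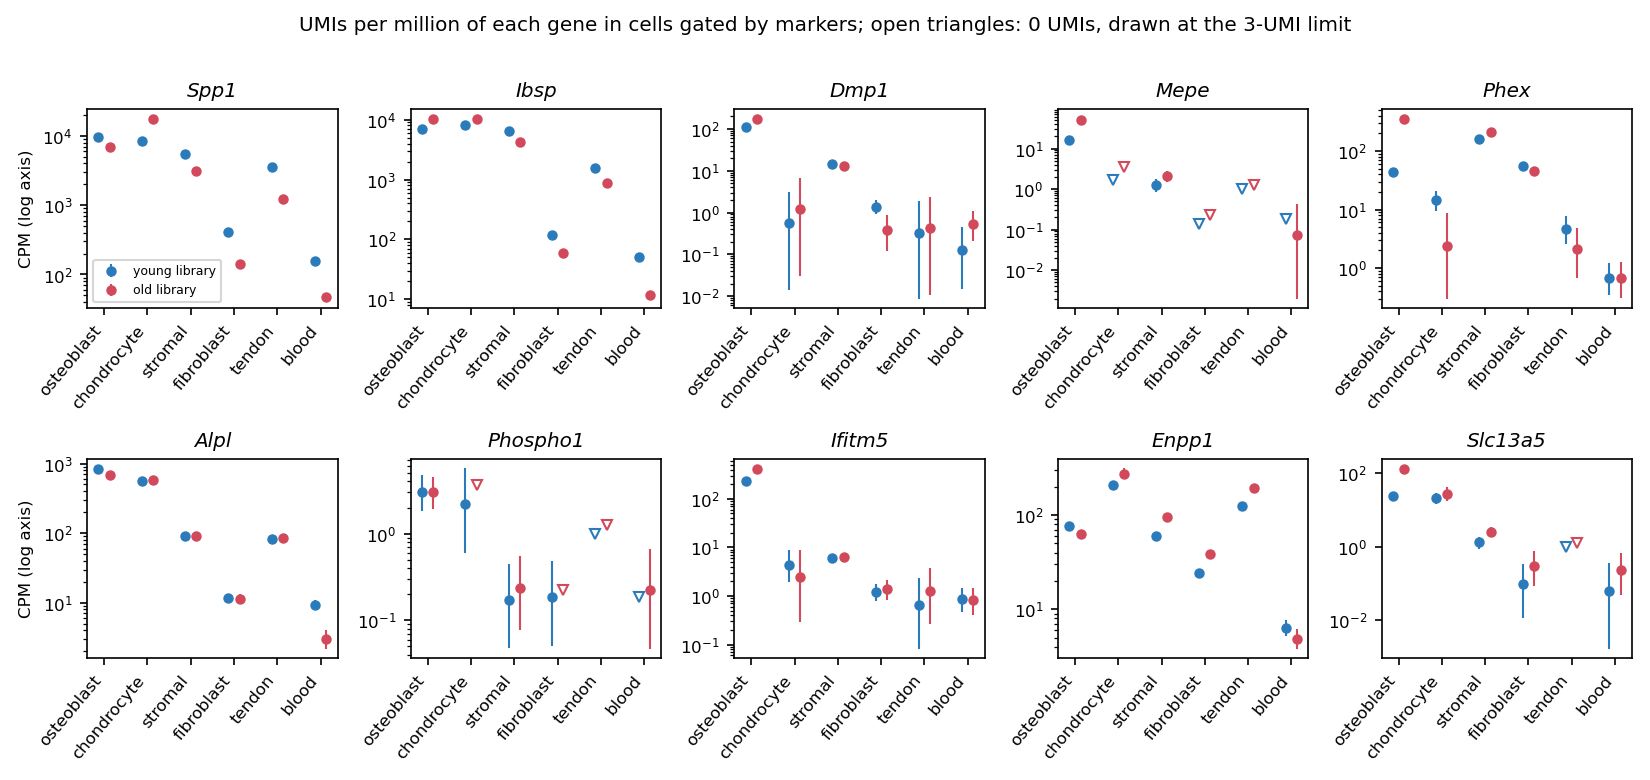
Level of each member (CPM, log axis) in osteoblast, chondrocyte, stromal, fibroblast, tendon and blood cells of the young (blue) and old (red) library, 1 mouse each. Bars are 95% exact Poisson intervals for counting error, and open triangles mark 0 UMIs at the limit that 3 UMIs would give. Ifitm5 and Dmp1 stand highest in osteoblasts in both libraries, Enpp1 in chondrocyte-gated cells.

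Among the secreted SIBLING genes, Spp1 encodes osteopontin, which binds integrins and mineral and slows crystal growth. Its level was 9492 CPM in young and 6993 CPM in old osteoblasts, 8354 and 17529 CPM in chondrocyte-gated cells, and 5421 and 3128 CPM in stromal cells. Tendon cells held 3602 and 1221 CPM, fibroblasts 408 and 140 CPM, and blood cells 156 and 47.4 CPM (erythroid cells alone 128 and 25.9 CPM). Osteoblasts were above stromal cells in both libraries, by 1.22 on the log2 scale (SE 0.412), which did not pass (edgeR, adjusted p = 0.0545). The difference from chondrocyte-gated cells was -0.78 (SE 0.413, adjusted p = 0.258) and had opposite signs in the libraries, 0.18 in the young and -1.33 in the old. The osteoblast and chondrocyte levels overlapped over the 2 mice.

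Ibsp encodes bone sialoprotein, which can seed hydroxyapatite. It stood at 6976 CPM in young and 10408 CPM in old osteoblasts, at 8156 and 10268 CPM in chondrocyte-gated cells and at 6477 and 4183 CPM in stromal cells. In the old chondrocyte-gated group 49.8% of the Ibsp UMIs came from 1 of 56 cells. Osteoblasts exceeded stromal cells by 0.99 (SE 0.323, adjusted p = 0.0484), but by only 0.11 in the young library against 1.32 in the old, and the call was lost under 4 alternative settings, with adjusted p from 0.0516 to 0.0948. The difference from chondrocyte-gated cells was -0.14 (SE 0.316, adjusted p = 0.822). Ibsp, like Spp1, was also read in most stromal cells. After each cell was thinned to 2000 UMIs, which makes shares comparable between depths, 86.3% of young and 75.3% of old stromal cells held an Ibsp UMI, against 78.3% and 85.5% of osteoblasts. In blood cells this share was 5.53% and 3.14%.

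Dmp1, which encodes dentin matrix protein 1 of late osteoblasts and osteocytes, stood at 110 CPM in young and 169 CPM in old osteoblasts. Stromal cells held 14.5 and 13.3 CPM, and chondrocyte-gated cells 1 UMI in each library. Osteoblasts exceeded stromal cells by 3.69 (SE 0.68, adjusted p = 0.00518) and chondrocyte-gated cells by 7.66 (SE 1.61, adjusted p = 0.0179). The Dmp1 UMIs sat in few cells, since 6.59% of young and 11.4% of old osteoblasts held one at 2000 UMIs and the 10 cells richest in Dmp1 held 59.3% and 51.3% of the group's Dmp1 UMIs.

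Cells without a class held 778 (young) and 73 (old) Dmp1 UMIs, or 81.6 and 8.85 CPM. Most of these came from young cells in which osteoblast markers tied with those of another class, mainly stromal. When tied cells were counted as osteoblasts, a choice made after seeing the data, Dmp1 still exceeded its stromal level and passed the test.

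Mepe encodes matrix extracellular phosphoglycoprotein, a product of osteocytes whose acidic peptide restrains mineral growth. It was at 16.0 CPM (101 UMIs) in young and 50.1 CPM (383 UMIs) in old osteoblasts and at 1.26 and 2.09 CPM in stromal cells. No Mepe UMI was found in chondrocyte-gated, fibroblast or tendon cells of either library. Osteoblasts exceeded stromal cells by 4.50 (SE 0.507, adjusted p = 0.001) and stood at least 30.4-fold higher than chondrocyte-gated cells, taking 3 UMIs over both libraries as the limit for 0. A single cell held 32.7% of the Mepe UMIs of young and 44.1% of those of old osteoblasts, and 10 cells held 85.1% and 94.3%. Cells without a class held 201 and 122 UMIs, so that Mepe was at 21.1 CPM there in the young library, above its level in gated osteoblasts.

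The phosphatases and the pyrophosphate maker divided differently. Alpl encodes tissue-nonspecific alkaline phosphatase, which hydrolyses pyrophosphate. It stood at 833 CPM in young and 675 CPM in old osteoblasts, at 568 and 589 CPM in chondrocyte-gated cells and at 90.1 and 91.5 CPM in stromal cells. Its osteoblast level lay above both other groups in each library. Osteoblasts exceeded stromal cells by 3.30 (SE 0.18, adjusted p = 2.66e-05), while the difference from chondrocyte-gated cells was 0.31 (SE 0.167, adjusted p = 0.274). In the old chondrocyte-gated group 1 cell gave 35.3% of the Alpl UMIs.

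Phospho1, a phosphatase of matrix vesicles that frees phosphate from phosphocholine, was barely read. It had 34 UMIs in all kept young cells and 37 in the old, of which 19 and 23 were in osteoblasts (3.00 and 3.01 CPM). Stromal cells held 4 and 5 UMIs. Osteoblasts exceeded stromal cells by 4.09 (SE 0.616, adjusted p = 0.0021). Against chondrocyte-gated cells, with 4 and 0 UMIs, a difference was not detectable at this depth (0.91, SE 0.848, adjusted p = 0.533).

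Enpp1, whose product makes pyrophosphate from ATP, was the member that was lower in osteoblasts than in chondrocyte-gated cells. Its level was 77.2 CPM in young and 62.2 CPM in old osteoblasts, 206 and 275 CPM in chondrocyte-gated cells, 126 and 192 CPM in tendon cells and 59.2 and 95.5 CPM in stromal cells. The difference from chondrocyte-gated cells was -1.83 (SE 0.21, adjusted p = 0.00146), and each library showed it. The osteoblast and stromal levels overlapped over the mice, with a difference of 0.16 (SE 0.198, adjusted p = 0.576). From high to low, Enpp1 ran chondrocyte, tendon, then stromal and osteoblast cells, then fibroblasts (24.3 and 38.6 CPM) and blood cells (6.36 and 4.89 CPM).

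Phex and Slc13a5 act at the membrane. Phex encodes an endopeptidase whose loss causes X-linked hypophosphatemia. It was at 44.4 CPM (281 UMIs) in young and 347 CPM (2653 UMIs) in old osteoblasts, at 163 and 213 CPM in stromal cells and at 56.4 and 46.0 CPM in fibroblasts. Phex was also read in stromal cells, where after thinning 22.4% of young and 27.9% of old cells had a Phex UMI, against 4.21% and 13.2% of osteoblasts and 0.101% and 0.165% of blood cells. In the young library osteoblasts were below stromal cells (-1.87 on the log2 scale) and in the old library above them (0.70), so the fitted difference was 0.10 (SE 0.73, adjusted p = 0.933). Against chondrocyte-gated cells the difference was 3.84 (SE 1.09, adjusted p = 0.0534), on 26 and 2 UMIs there.

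Slc13a5 encodes a sodium-coupled citrate transporter, and citrate is a component of bone mineral. Osteoblasts held 23.4 CPM (148 UMIs) in the young and 129 CPM (983 UMIs) in the old library, stromal cells 1.31 and 2.56 CPM, and fibroblasts 0.0936 and 0.303 CPM. The osteoblast level exceeded the stromal by 5.36 (SE 0.449, adjusted p = 0.000146) and that of the group named other by 7.81 (SE 0.517, adjusted p = 5.34e-05). Chondrocyte-gated cells held 21.0 and 27.6 CPM, on 38 and 23 UMIs, and the difference from them was 1.18 (SE 0.472, adjusted p = 0.143).

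Ifitm5 encodes an osteoblast membrane protein that is mutated in a form of osteogenesis imperfecta. It stood at 228 CPM in young and 412 CPM in old osteoblasts, at 6.18 and 6.45 CPM in stromal cells and at 4.43 and 2.40 CPM in chondrocyte-gated cells. The next highest level was 11.9 CPM, in young cells without a class. The difference was 5.91 from stromal cells (SE 0.381, adjusted p = 5.11e-05) and 6.29 from chondrocyte-gated cells (SE 0.551, adjusted p = 0.000435). At 2000 UMIs per cell 18.4% of young and 29.3% of old osteoblasts held an Ifitm5 UMI, against 0.201% and 0 of the blood cells.

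**Figure D2:**
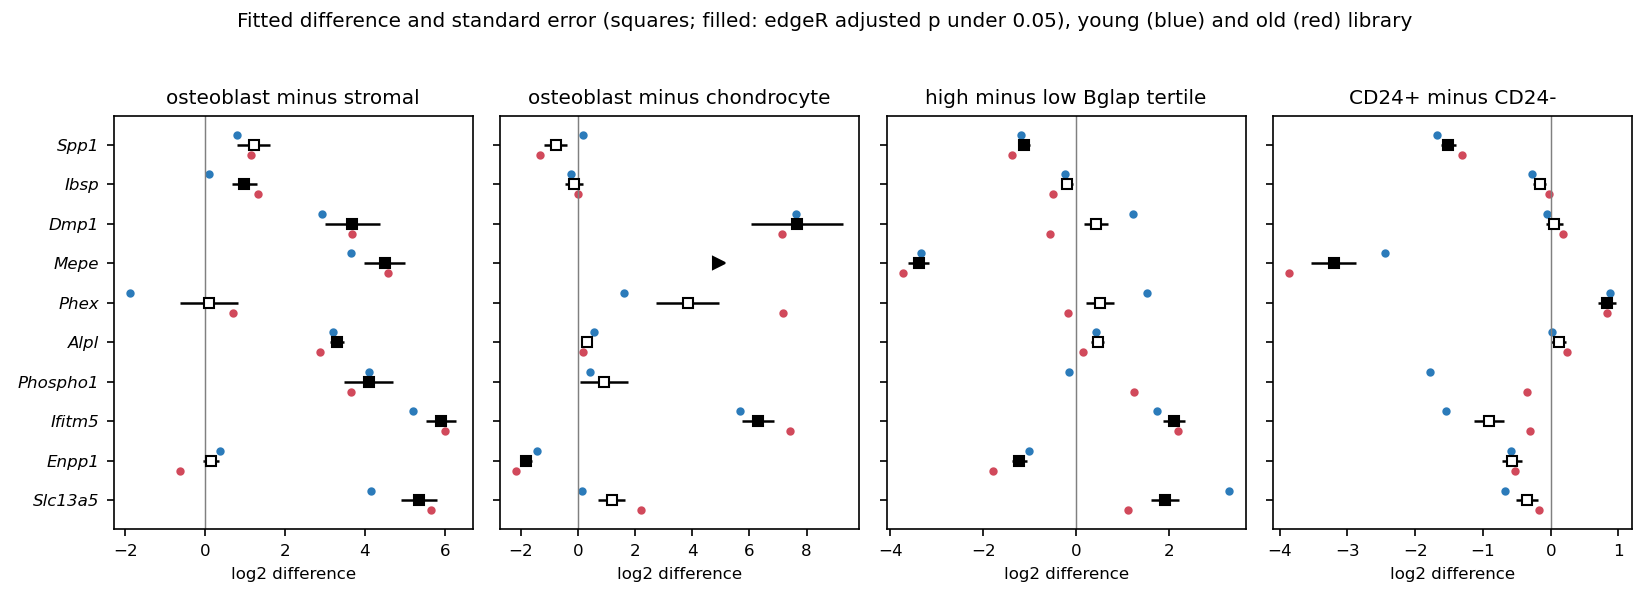
Fitted log2 difference of each member with its standard error (squares, filled where the edgeR adjusted p was under 0.05) in 4 contrasts, with the difference in the young (blue) and old (red) library as points. The triangle is the lower bound for Mepe, which had 0 UMIs in chondrocyte-gated cells. Phex in osteoblasts against stromal cells lies on opposite sides of 0 in the libraries.

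Genes that work with these members were read in the same fit from fixed lists. All 6 transcription factors tested were higher in osteoblasts than in stromal cells, with Dlx3 at 4.01, Mef2c at 3.14, Creb3l1 at 2.34 and Vdr at 1.63. Of 7 mineral-binding matrix genes 5 were higher (Col1a1 by 4.49, Col1a2 by 3.69, Omd by 3.31 and Sparc by 3.13 among them) and 1 was lower. The lower one was Mgp, a secreted inhibitor of calcification, at -3.06 (SE 0.451, adjusted p = 0.00191); it was named here after its value was seen. Among 5 genes that process these proteins or act with FGF23, 3 were higher: Galnt3, which glycosylates FGF23, by 3.89, Fam20c, the kinase of secreted phosphoproteins, by 2.17, and Bmp1, which cleaves procollagen and Dmp1, by 1.52. Fam20a was lower at -0.75. The median difference was 1.99 for the transcription factors, 3.13 for the matrix genes and 1.52 for the processing genes, against -0.05 for all genes tested.

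Phosphate and pyrophosphate handling was more mixed. Ank, a pyrophosphate exporter, was higher in osteoblasts than in stromal cells by 1.48, as was the phosphate exporter Xpr1 by 0.46, while the phosphate importer Slc20a1 was lower at -0.92. The other 3 of the 6 tested did not pass. Against chondrocyte-gated cells none of the 6 was higher and 4 were lower: Slc20a1 at -4.61, Ppa1, a pyrophosphatase, at -3.78, Nt5e, which makes adenosine from AMP, at -2.92 and Ank at -2.12. The list's median was -2.52 there, against 0.06 for all genes. Enpp1 and Ank, which both supply extracellular pyrophosphate, were both lower in osteoblasts than in chondrocyte-gated cells. Of 8 receptors, 2 were higher than in stromal cells (Cd44, a receptor of osteopontin, by 1.48 and Itgb5 by 1.03) and 2 were lower (Itga9 at -2.10 and Itgav at -0.42).

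The second comparison asked how the members varied with the osteocalcin level of osteoblasts. Osteoblast-gated cells were ranked in each library by the UMIs of Bglap and Bglap2, which encode osteocalcin, a product of mature osteoblasts, and were cut into tertiles (3 equal parts). The 2 genes are near-identical copies, so they were summed. Tertiles held 243 or 244 young and 148 old cells. The lowest tertile reached 15.2 osteocalcin UMIs per 10000 in the young and 14.4 in the old library, and the highest began at 67.5 and 77.7. Of the 10 members 9 could be tested, since Phospho1 fell under the low-count filter. Between the highest and lowest tertile 2 rose and 3 fell, where 3.22% of 10788 genes rose and 4.69% fell.

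**Figure D3:**
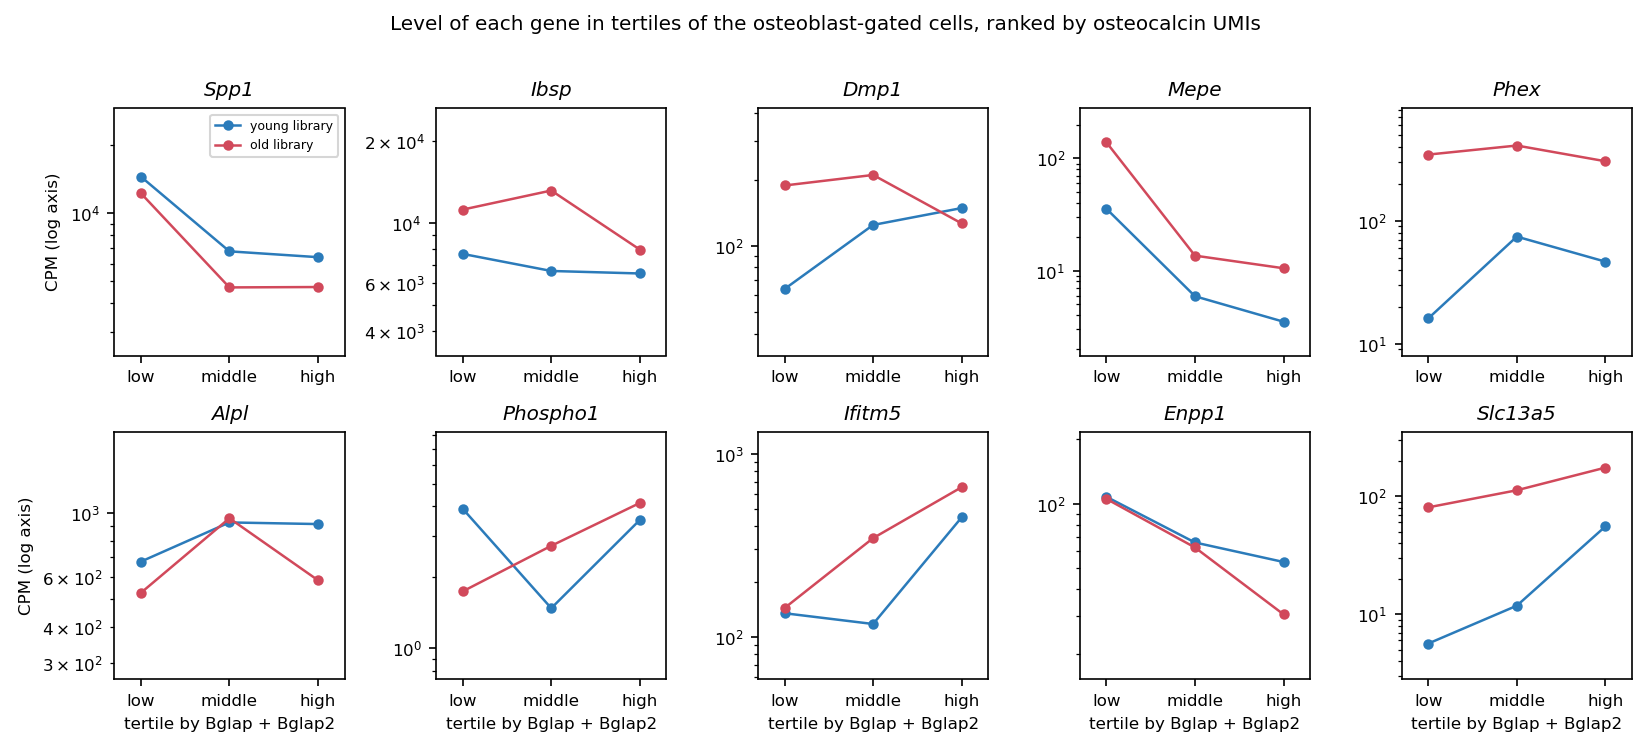
Level of each member (CPM, log axis) in the low, middle and high tertile of osteoblast-gated cells ranked by osteocalcin UMIs, in the young (blue) and old (red) library. Mepe, Spp1 and Enpp1 are highest in the low tertile of both libraries, Ifitm5 and Slc13a5 end highest in the high tertile, and Dmp1 and Phex take different courses in the libraries.

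Ifitm5 was at 134, 117 and 449 CPM in the low, middle and high tertile of the young library and at 143, 345 and 656 CPM in the old. It rose by 2.11 between the outer tertiles (SE 0.243, adjusted p = 0.00017). The citrate transporter Slc13a5 was at 5.65, 11.8 and 55.5 CPM in the young and at 80.5, 112 and 175 CPM in the old library, and rose by 1.91 (SE 0.3, adjusted p = 0.00151). For both genes every library had its top value in the high tertile.

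Mepe took the opposite course, with 35.6, 5.91 and 3.50 CPM in the young and 139, 13.6 and 10.5 CPM in the old library, a difference of -3.39 (SE 0.224, adjusted p = 3.93e-06). Spp1 was at 14549, 6797 and 6405 CPM and at 12290, 4708 and 4726 CPM, a difference of -1.11 (SE 0.114, adjusted p = 7.89e-05). Enpp1 went from 108 over 66.0 to 53.5 CPM and from 105 over 62.6 to 30.5 CPM, a difference of -1.22 (SE 0.166, adjusted p = 0.000569). In summed level the 3 genes were highest in the tertile with the least osteocalcin in each library. Over single osteoblasts thinned to equal depth, Spearman's rho of Spp1 with osteocalcin was 0.16 (young) and -0.0065 (old). The fall of Spp1 was thus seen in the sums and not from cell to cell. For Mepe rho was -0.07 and -0.11, and for Enpp1 -0.07 and -0.15. Without the osteoblast richest in each member in each library, Mepe still fell (-2.40, adjusted p = 0.000563). When the cells were thinned to equal depth Enpp1 no longer passed (-0.73, adjusted p = 0.17), and a fit without the mouse block called none of the 9 (57 genes in all, against 853).

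The other members did not pass. Alpl was at 677, 928 and 916 CPM and at 526, 960 and 583 CPM (0.46, SE 0.136, adjusted p = 0.0605). Ibsp differed by -0.19 (SE 0.124, adjusted p = 0.455). Dmp1 and Phex had opposite signs in the libraries: Dmp1 was higher in the high tertile of the young library by 1.22 and lower in that of the old (-0.57), and Phex differed by 1.53 and -0.18.

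Markers of other cell types differed between these tertiles as well. The 8 fibroblast markers summed to 293, 146 and 105 CPM from low to high in the young and to 192, 101 and 57.9 CPM in the old library, and the tendon markers to 1624, 2074 and 1340 CPM and to 1542, 1527 and 591 CPM. Granulocyte markers were at 332, 5.91 and 5.00 CPM in the young and at 22.6, 157 and 10.5 CPM in the old library. The other osteoblast markers, without osteocalcin, were at 1557 CPM in the low and 1660 CPM in the high tertile of the young library and at 1490 and 2129 CPM in the old. Their part in the members' differences was not tested. Of the listed genes, Col1a1 (1.29), Col1a2 (1.22), Galnt3 (1.15), Sparc (0.94), Bmp1 (0.78) and Mef2c (0.64) rose with osteocalcin, and Mgp (-2.96), Slc20a1 (-1.63), Nt5e (-1.18), Itga5 (-1.13) and Itgb5 (-0.66) fell.

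The next comparison followed CD24, the surface protein the study stained. A cell was CD24+ above 318 (young) or 404 (old) antibody UMIs, which gave 169 of 731 young and 71 of 444 old osteoblast-gated cells. Of the 9 members tested 1 was higher in CD24+ osteoblasts and 2 were lower, where 0.366% of 11192 genes were higher and 0.411% lower. Spp1 stood at 3690 CPM in CD24+ and 11850 CPM in CD24- cells of the young library and at 3131 and 7734 CPM in the old, a difference of -1.51 (SE 0.106, adjusted p = 0.000451). Mepe was at 3.83 against 20.9 CPM and at 4.06 against 58.9 CPM (-3.21, SE 0.33, adjusted p = 0.00448). CD24+ cells were lower in both genes in each mouse. For Mepe this rests on few cells, since only 24 young and 27 old osteoblasts held any Mepe UMI. The CD24+ sums held 7 (young) and 5 (old) Mepe UMIs.

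Phex was higher in CD24+ cells, at 65.6 against 35.8 CPM in the young and 550 against 308 CPM in the old library (0.83, SE 0.128, adjusted p = 0.0185). This rested on few cells: without the osteoblast with the most UMIs of each member in each library (8 young and 10 old cells) the difference was -0.25 (adjusted p = 0.883). Ifitm5 was at 96.7 against 281 CPM and at 344 against 426 CPM (-0.90, SE 0.222, adjusted p = 0.129), and Enpp1 at 56.8 against 85.5 CPM and at 45.5 against 65.5 CPM (-0.57, SE 0.144, adjusted p = 0.14). Alpl, Ibsp, Dmp1 and Slc13a5 had adjusted p-values from 0.586 to 0.946. CD24+ cells were deeper, with a median of 9483 against 6448.5 UMIs in the young and 16040 against 13525 in the old library, and tendon markers were higher in them (2070 against 1520 CPM and 1597 against 1060 CPM). Granulocyte markers were lower in them, at 3.28 against 173 CPM in the young and 32.5 against 61.1 CPM in the old library. Erythroid markers (73.2 against 11.1 CPM) and B-lineage markers (21.3 against 4.89 CPM) were higher in young CD24+ cells, and in the old library they were at 12.2 against 10.6 CPM and 4.06 against 4.99 CPM. The part of these markers and of depth in the members' differences was not tested. Without the mouse as a block no gene passed, and 424 genes had an unadjusted p under 0.05.

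The last comparison set the old library beside the young. It has no replicate check, and the ratios carry exact 95% intervals for counting error only. In osteoblasts 3 of the 9 members with at least 50 UMIs were over 2-fold higher in the old library and none was over 2-fold lower, where 1.76% of 10743 genes were past 2-fold higher and 2.44% past 2-fold lower. Phex went from 44.4 to 347 CPM, a ratio of 7.82 (6.91 to 8.87). Slc13a5 went from 23.4 to 129 CPM, a ratio of 5.50 (4.62 to 6.58), and Mepe from 16.0 to 50.1 CPM, a ratio of 3.14 (2.52 to 3.95). The Mepe ratio rests on few cells, since 1 cell held 44.1% and 10 cells 94.3% of the old Mepe UMIs, and at 2000 UMIs per cell 1.82% of young and 2.05% of old osteoblasts held a Mepe UMI (exact binomial intervals 0.974 to 3.10 and 0.939 to 3.85). Ifitm5 (1.81), Dmp1 (1.54) and Ibsp (1.49) were also above 1, and Alpl (0.81), Enpp1 (0.81) and Spp1 (0.74) below.

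Old osteoblasts were deeper, with a median of 14283 against 7093 UMIs. Their summed Bglap level was higher, 14717 against 6003 CPM, of which 10 cells gave 46.6% of the old and 42.2% of the young UMIs, but similar shares of cells fell into common low, middle and high ranges of osteocalcin (33.2%, 34.6% and 32.1% of young and 33.6%, 31.1% and 35.4% of old cells). Within these ranges the Phex ratio was 21.2 in the low, 5.96 in the middle and 6.30 in the high range, and the Slc13a5 ratio 14.0, 8.71 and 3.11. The low-range ratios rest on few young UMIs. The young low tertile, which ended at nearly the same osteocalcin level, held 37 Phex and 13 Slc13a5 UMIs. Since 1 cell gave 37.4% of the young Phex UMIs, the Phex ratio over all osteoblasts without the richest cell of each library was 11.3. After thinning to 2000 UMIs 4.21% of young and 13.2% of old osteoblasts held a Phex UMI, and 2.95% and 10.5% a Slc13a5 UMI. The Dmp1 ratio depended on which cells were called osteoblasts, being 0.97 with tied cells counted in. After thinning, which gives each cell equal weight, it was 2.05. The Enpp1 ratio was 1.09 after thinning.

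**Figure D4:**
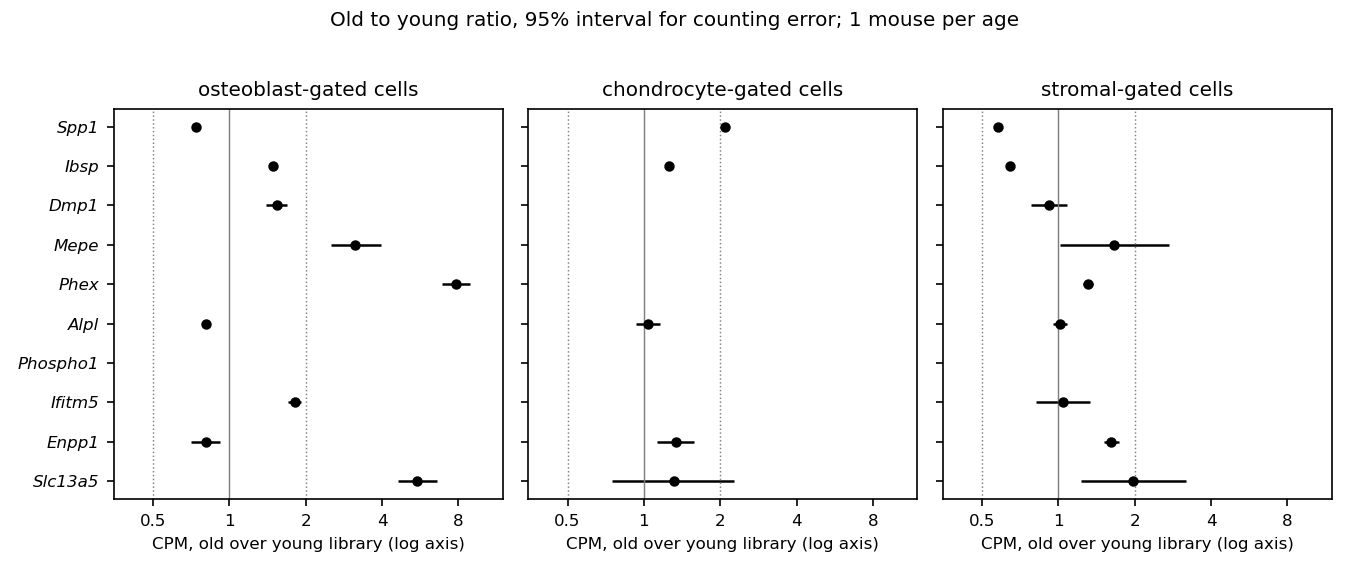
Ratio of the old to the young library (CPM, log axis) for members with at least 50 UMIs in osteoblast, chondrocyte and stromal cells, with 95% intervals for counting error. Dotted lines mark 2-fold in either direction. Phex, Slc13a5 and Mepe exceed 2-fold in osteoblasts, and Spp1 in chondrocyte-gated cells.

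In chondrocyte-gated cells Spp1 was higher in the old library, with a ratio of 2.10 (2.05 to 2.15), where 3% of genes were past 2-fold higher and 3.88% past 2-fold lower. There 15.6% of the old Spp1 UMIs came from 1 of the 56 cells. In stromal cells no member was past 2-fold, where 1.91% of genes were higher and 1.12% lower by that much. Spp1 was at 0.58 and Ibsp at 0.65 of the young level, Enpp1 at 1.61, Phex at 1.31 and Alpl at 1.02. On few UMIs, stromal Slc13a5 went from 1.31 to 2.56 CPM (30 and 54 UMIs) and Mepe from 1.26 to 2.09 CPM (29 and 44 UMIs). Stromal Dmp1 went from 14.5 to 13.3 CPM and Ifitm5 from 6.18 to 6.45 CPM. Spp1 was also lower in the old fibroblasts (0.34) and tendon cells (0.34), where 1.21% and 1.76% of genes were past 2-fold lower. In erythroid cells, as background, Spp1 was at 128 CPM in the young and 25.9 CPM in the old library, and 1 cell held 61.3% of these young UMIs. At 2000 UMIs per cell 9.07% (6.83 to 11.8) of young and 6.64% (4.49 to 9.39) of old erythroid cells held an Spp1 UMI. The part of free RNA in the stromal, fibroblast and tendon ratios was not tested.

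Single osteoblasts held only some of the members. Among 713 young and 440 old osteoblasts thinned to 2000 UMIs the median cell held 3 of the 10, and 5.75% and 3.64% held none. In the old library 46.6% of the Phex-positive cells held Slc13a5, against 4.97% of the Phex-negative (Spearman rho 0.48), while 24.1% of them held Alpl, against 66.2% (rho -0.27). In the young library, with 30 Phex-positive cells, the shares were 20.0% against 2.20% for Slc13a5 (rho 0.21) and 15 of the 30 held Alpl, against 66.8% of the others (rho -0.06). Spp1 and Ibsp went together in both libraries (rho 0.43 and 0.23), as did Dmp1 and Phex (0.23 and 0.33) and Ifitm5 and osteocalcin (0.25 and 0.36). These are descriptions over cells of 1 library each, which share depth and free RNA, with no test.

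Across the 18 sums of 9 gated classes in 2 mice, the genes most like each member were found by Pearson's r of log2(CPM + 5) over 14320 genes. Spp1 and Ibsp were both nearest to Pth1r, the receptor of parathyroid hormone (r 0.94 and 0.97), and Fgfr2 (0.94 and 0.96), with Ncam1 (0.92) and Cd200 (0.95) next, and had r of 0.965 with each other. Ifitm5 was nearest to Mlip (0.99), Entpd3 (0.98) and Chn1 (0.97), and Dmp1 to Gm36827, Chn1 (both 0.98) and Gm8300 (0.97). Mepe was nearest to Pgbd5, Hrc (both 0.98) and Tmem182 (0.97), Slc13a5 to Car12 (0.95), Bglap3 and Col11a2 (both 0.94), and Alpl to Col11a1, Fgfr3 and Rarres1 (all 0.95). Enpp1 was nearest to Kifc3, Hectd2 and Sobp (all 0.96) and Phex to Pvalb (0.94), Pdk4 (0.93) and Gm16118 (0.92). Among the members Dmp1, Mepe and Ifitm5 had r from 0.932 to 0.965 with each other, and Enpp1 had r of 0.285 with Dmp1 and 0.204 with Mepe. Dmp1, Mepe and Ifitm5 are low outside the osteoblast sums, so their r rests mainly on those sums. Over single thinned osteoblasts (young and old) rho was 0.11 and -0.06 for Mepe with Ifitm5. It was 0.27 and 0.09 for Dmp1 with Ifitm5, and 0.09 and 0.05 for Dmp1 with Mepe. Phospho1 had too few UMIs for this measure. The sums share libraries and differ in depth, so r is given as a description.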

How the data were processed

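Raw UMI counts per gene and barcode were deposited by the authors for 2 libraries, 1 mouse each, with 1 antibody feature. The matrix header names Cell Ranger 6.1.1, and the submitters' processing notes name build mm10, R 4.0.3 and Seurat 4.0. No normalization had been applied to the deposited counts. Barcodes with at least 200 genes and at most 20% mitochondrial UMIs were kept (10063 of 11371 young, 5607 of 6729 old). Scrublet (scanpy 1.11.5, seed 1) marked 269 young and 57 old cells as doublets, which were kept except in an alternative.

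Each cell took the class with the most of 8 markers, at least 3, with ties left without a class. UMIs were summed per mouse and group (8 sums), per mouse and osteocalcin tertile (6) or per mouse and CD24 state (4). The CD24 threshold was set by Otsu's method in each library. Sums were fitted with edgeR 4.0.16 in R 4.3.3 (TMM, filterByExpr, quasi-likelihood F test, Benjamini-Hochberg adjustment over all genes tested, called at 0.05). The mouse was a block, since sums of 1 mouse come from the same animal. A standard error is the log2 difference divided by the square root of F. DESeq2 1.42.0 was an alternative, with other filters, gates, depths and thresholds. The fits were tested on simulated data in which 200 genes were given a log2 change of 2: 82% were recovered for osteoblast minus chondrocyte (14865 genes), 95% for the osteocalcin tertiles (10487) and 92.5% for CD24 (10976). Recovery does not tell how many unchanged genes were called, which is not given here. The simulated sums had a common mean profile and a common dispersion. They therefore do not cover group differences particular to a mouse, or genes whose UMIs sit in few cells. With 1 mouse per age, p-values of these fits reflect how far 2 mice repeat a difference between cells. They also rest on an estimate of spread that edgeR shares across genes, and the CD24 fit, on 4 sums, leans on this most.

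Old and young were compared as CPM with exact Poisson intervals and ratios with exact conditional binomial intervals (95%), which cover counting error only. Ratios were read at 50 UMIs or more over both libraries, with 2-fold as the rule of size, and 3 UMIs stood as the limit for 0. Tables used numpy 2.4.6, scipy 1.17.1 and pandas 2.3.3. All 10 members are named, with the 3 genes most like each and up to 4 genes per list with the largest change among those that passed. The members and lists were chosen with earlier results of these data known. Promoters are from RefSeq, build GRCm38.p6, and all 10 members matched.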

Additional observations from a re-analysis of the deposited data

Results flagged for a closer look

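Some members moved in opposite directions in the libraries, with 1 mouse each, and these differences were not tested. Spp1 in osteoblasts against chondrocyte-gated cells had log2 differences of 0.18 (young) and -1.33 (old). Against stromal cells Phex differed by -1.87 and 0.70, and Enpp1 by 0.38 and -0.62. Between the highest and lowest osteocalcin tertile Dmp1 differed by 1.22 (young) and -0.57 (old), and Phex by 1.53 and -0.18.

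The ratio of old to young also took different directions in different cell groups, again not tested. For Spp1 it was 0.737 in osteoblasts, 2.10 in chondrocyte-gated cells and 0.577 in stromal cells. For Ibsp it was 1.49, 1.26 and 0.646, and for Enpp1 0.806, 1.34 and 1.61 in the same order. In the old chondrocyte-gated group, of 56 cells, 1 cell gave 49.8% of the Ibsp UMIs.

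Barcodes removed for few genes or a high mitochondrial share (1308 young and 1122 old) still held members. Dmp1 stood at 40.0 CPM (64 UMIs, exact Poisson interval 30.8 to 51.1) in the removed young barcodes, against 22.7 CPM in kept cells. Phospho1 stood at 2.13 CPM in the removed old barcodes, on 4 UMIs (0.58 to 5.45), against 0.555 CPM in kept cells.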

How the results depend on the processing

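Of the members' tests under the alternatives, 420 kept direction and side of the threshold, 20 lost and 25 gained a call and 12 changed sign; the cause was not tested. Pairing: without the mouse block the osteocalcin comparison called 57 genes (853 with it) and 0 members higher or lower, and CD24 called 0 genes (87 with it) and 0 members in either direction. Without the block Ibsp against stromal cells (adjusted p = 0.0516) and Enpp1 against other cells (0.0508) lost and Phex against chondrocyte-gated cells (0.0424) gained its call, and no other call against these groups changed. Thinned to 2000 UMIs, 994 genes passed against chondrocyte-gated cells (2408 before), 3222 against stromal cells (5417), 3138 against other cells (6288) and 191 for osteocalcin. For osteocalcin DESeq2 called 294 genes, no low-count filter 1293, a split at the median 361 and at least 4 markers 498. For CD24 they were 41 with DESeq2, 313 with no filter, 207 without doublets, 31 with at least 4 markers and 155 with at most 10% mitochondrial UMIs, and, with settings chosen after seeing the data, 223 with ties counted as osteoblasts and 195 without the richest cell of each member. Members higher than in chondrocyte-gated cells were 5 with no filter or a gate of 2 genes, and 4 rose with osteocalcin with no filter. With CD24, 0 members were higher with a threshold set within osteoblasts, thinned, with at least 4 markers or without the richest cells, and 1 was lower with DESeq2 and 4 with no filter or with ties. Signs turned for Ibsp against chondrocyte-gated cells (0.17 thinned, 0.0054 with the 2-gene gate) and along osteocalcin (0.018 with ties). They turned for Phex against stromal cells (-0.52 thinned, -0.20 with ties, -0.32 without the richest cells), along osteocalcin (-0.34 thinned) and with CD24 (-0.25 without the richest cells). With CD24 they also turned for Dmp1 (-0.94 thinned, -0.38 with ties, -0.29 without the richest cells) and Slc13a5 (0.23 thinned). Each mouse alone gave values with no test. Of the old to young ratios 63 moved past their counting interval and 109 did not. Depth limits Phospho1 and Mepe most, read from 71 and 881 UMIs in all kept cells.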

Other observations

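A few cells without a class were rich in Dmp1. In the young library 16 such cells held at least 10 Dmp1 UMIs, and in the old library 1 did. Most of them showed as many osteoblast as stromal or fibroblast markers, and up to 132 Dmp1 UMIs were read in 1 cell. The 2 of them richest in Mepe held 77 and 47 Mepe UMIs with no Ibsp or 1 Ibsp UMI and no Alpl, Ifitm5, Enpp1 or Slc13a5, at total depths of 2325 and 1651 UMIs. These cells were picked for their Dmp1 UMIs, so their levels are a description. Scrublet marked none of the 17 as a doublet.

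Along CD24 the mineral-binding matrix list held 1 lower gene of 6 tested, Chad, at -1.10 (edgeR, adjusted p = 0.0057), and no gene of the phosphate, processing, receptor or transcription factor lists passed. Against the group named other, 5 of 5 processing genes, 5 of 7 matrix genes and 5 of 6 transcription factors were higher in osteoblasts. Of the 8 receptors 3 were higher and 4 lower there.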
